A study of Coregonus lavaretus with 13 samples.

Results

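Putative long non-coding RNAs (lncRNAs) of whitefish liver were measured 1 day after injection of microcystin-LR (MC-LR), as 1100 contigs out of the 4729 that the study's tables list on any day. A contig is a transcript assembled de novo from the sequencing reads. The authors listed these 1100 because DESeq2 gave them an adjusted p under 0.001 on the same 7 fish, so their difference between groups is a description of how they were chosen and not independent evidence. Contigs that were not listed were not analysed here. The livers came from juvenile whitefish (Coregonus lavaretus, Rutki-strain) and each fish gave 1 polyadenylated RNA library. The 3 MC-LR fish had received 100 μg of toxin per kg of body mass into the body cavity, dissolved in phosphate buffer saline (PBS). The 4 PBS fish had received the solvent alone and were also sampled on day 1, so toxin and vehicle were compared at the same time after injection. The groups were held in separate tanks, and toxin and tank cannot be told apart.

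MC-LR is a cyclic peptide toxin of cyanobacteria. It enters liver cells through bile acid and organic anion transporters and inhibits serine/threonine protein phosphatases, which disturbs the cytoskeleton and the phosphorylation of many proteins. LncRNAs are transcripts without a recognisable protein product. Many are made at low levels and in few tissues, and well-studied members in mammals act on chromatin, splicing or microRNAs. The contigs below have no gene name, genome position or sequence in the tables, and their identifiers are the assembler's own, which a table of gene names cannot match. No function is given for a member here, and the labelled tissue could not be checked against marker genes. In bulk liver RNA, fewer cells of a type and less RNA per cell cannot be told apart.

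Levels are given as normalized counts, the reads of a contig divided by the size factor of the fish. Size factors were 0.964, 1.19 and 0.83 in MC-LR fish 1, 2 and 3, against 1.02, 1.12, 1.02 and 1.11 in PBS fish 1 to 4. The listed contigs held 155677 to 231470 reads per MC-LR fish and 109901 to 128767 per PBS fish, which is a part of each library and not its depth. Contig lengths were not used, so an order of contigs by level is an order of reads and not of molecules. Divided by the clean reads of the library and scaled to a mean of 1 over the 7 fish, the size factor was 0.748, 1.01 and 0.850 in MC-LR fish, against 1.06, 1.06, 1.09 and 1.19 in PBS fish. The MC-LR fish were all below the PBS fish, with means of 0.868 ± 0.130 (SD, n = 3) and 1.10 ± 0.0616 (SD, n = 4). A two-sided exact permutation test over the 35 splits gave p = 0.0286, the smallest it can give. The size factors alone averaged 0.995 ± 0.184 in MC-LR fish and 1.07 ± 0.0536 in PBS fish and overlapped (exact permutation p = 0.543). Scaling by clean reads in place of size factors shifts log2 fold changes by -0.35, the difference between groups in the mean log2 ratio of the scalings.

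By group means, 548 of the 1100 contigs were higher and 552 lower in MC-LR livers than in PBS livers. The higher contigs had a median of 80.2 normalized counts in MC-LR livers and 1.88 in PBS livers. The lower contigs had medians of 4.23 in MC-LR livers and 84.3 in PBS livers. On the scale of the size factors, each set was thus near 80 on the side where it was expressed and at a few counts on the other. Both directions were listed at the same adjusted p, so this likeness is a description of the list. No listed contig had a mean under 13.4 normalized counts on its expressed side, and the smallest mean over all 7 fish was 6.00. Where both group means were above 0, the median ratio was 18.2 for 399 higher contigs, as MC-LR over PBS, and 17.7 for 478 lower contigs, as PBS over MC-LR.

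**Figure D1:**
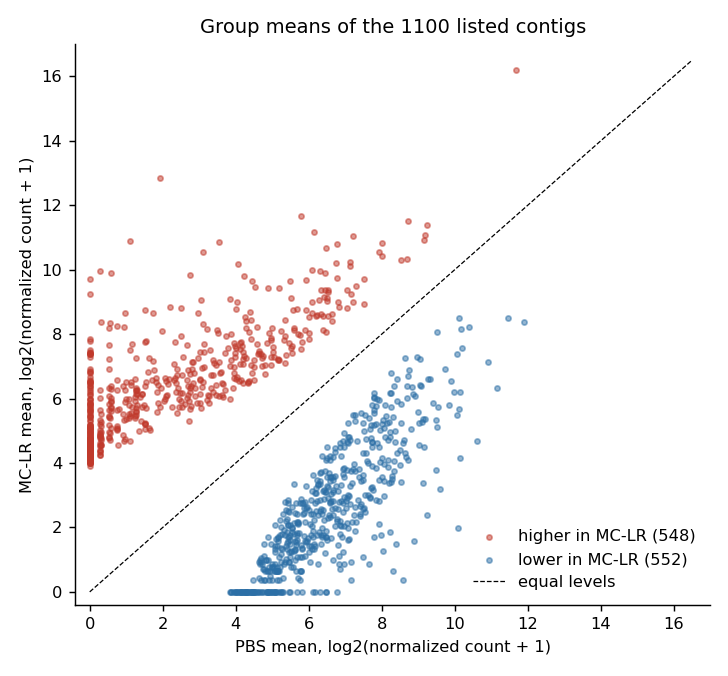
Mean level of each of the 1100 listed contigs in MC-LR livers (vertical axis, n = 3) against PBS livers (horizontal axis, n = 4), both as log2(normalized count + 1), with the line of equal levels dashed. Red points are the 548 higher contigs and blue points the 552 lower ones. The points on the left edge are 149 contigs without a read in any PBS fish, and those on the bottom edge are 74 contigs without a read in any MC-LR fish. The empty band along the line follows from the listing.

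In edgeR's quasi-likelihood test on the counts, 464 contigs rose past the study's thresholds (adjusted p under 0.001 and log2 fold change beyond 2), which is 42.2% of the 1100 tested. In the same test 395 contigs fell past them, or 35.9%. The p-values were adjusted over the listed contigs alone, which were already selected, so nothing was read from these shares. All 548 and 552 kept their direction with an unadjusted p under 0.05, which their listing on these fish all but fixes. Every MC-LR fish was above every PBS fish in 546 contigs, or 49.6% of those listed, and every MC-LR fish was below every PBS fish in another 546, also 49.6%. With TMM scaling of the listed contigs, which shifts log2 fold changes by 1.05, the calls were 548 up and 177 down. This shift is opposite in sign to the -0.35 of clean reads. Without MC-LR fish 1 the test called only 10 up and 1 down, without MC-LR fish 2 it called 360 and 207, and without MC-LR fish 3 it called 389 and 202. Without MC-LR fish 1 all 548 and 552 still kept their direction with an unadjusted p under 0.05, which largely follows from their listing. The most abundant higher contig then had an adjusted p of 0.00162, just above the threshold, at a log2 fold change of 4.85. The most abundant contigs without a read in PBS or in MC-LR fish had the same adjusted p.

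The higher contigs were read in MC-LR livers at very unequal levels. TRINITY_DN78778_c0_g1_i16, the most abundant of them, had 32645, 42614 and 147767 normalized counts in MC-LR fish 1, 2 and 3, against 3070, 3444, 3966 and 2686 in PBS fish 1 to 4. It was already the most abundant of these contigs in PBS livers, and MC-LR fish 3 held over 3 times as many counts as either other exposed fish. It averaged 74342 ± 63783 (SD, n = 3) in MC-LR livers, 22.6-fold above the 3291 ± 546 (SD, n = 4) of PBS livers. In edgeR the log2 fold change reached 4.50 with an SE of 0.85 and an adjusted p of 0.000152. Adjusted p of single contigs, here and below, describe contigs listed on these same fish and are no independent evidence. Without MC-LR fish 3 the log2 fold change fell from 4.50 to 3.52, so much of the fold rested on this fish. The adjusted p passed above 0.001 without MC-LR fish 1 (0.00162), PBS fish 2 (0.00118) or PBS fish 3 (0.00141), where the log2 fold changes were 4.85, 4.52 and 4.60.

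On the scale of the size factors, this 1 contig made most of the difference between exposed fish in total level. Summed over all 548 higher contigs, MC-LR fish 1, 2 and 3 held 152721, 164219 and 271661 normalized counts, against 13075, 15314, 16120 and 14634 in PBS fish 1 to 4. The means were 196200 ± 65603 (SD, n = 3) in MC-LR livers and 14786 ± 1292 (SD, n = 4) in PBS livers. Without TRINITY_DN78778_c0_g1_i16, the other 547 contigs summed to 120077, 121605 and 123894 in the same MC-LR fish. The 3 exposed livers then differed little, with a mean of 121858 ± 1921 (SD, n = 3) against 11494 ± 1000 (SD, n = 4) in PBS livers. This closeness rests on the size factors, which per clean read stood at 0.748, 1.01 and 0.850 in MC-LR fish 1, 2 and 3. Scaling by clean reads would set these sums further apart. The contig took 21.4%, 25.9% and 54.4% of the sum in MC-LR fish 1, 2 and 3, and 18.4% to 24.6% in PBS fish. In MC-LR fish 3 it alone was more than every other higher contig together, while 18 and 22 contigs were needed to reach the same mark in MC-LR fish 1 and 2.

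**Figure D2:**
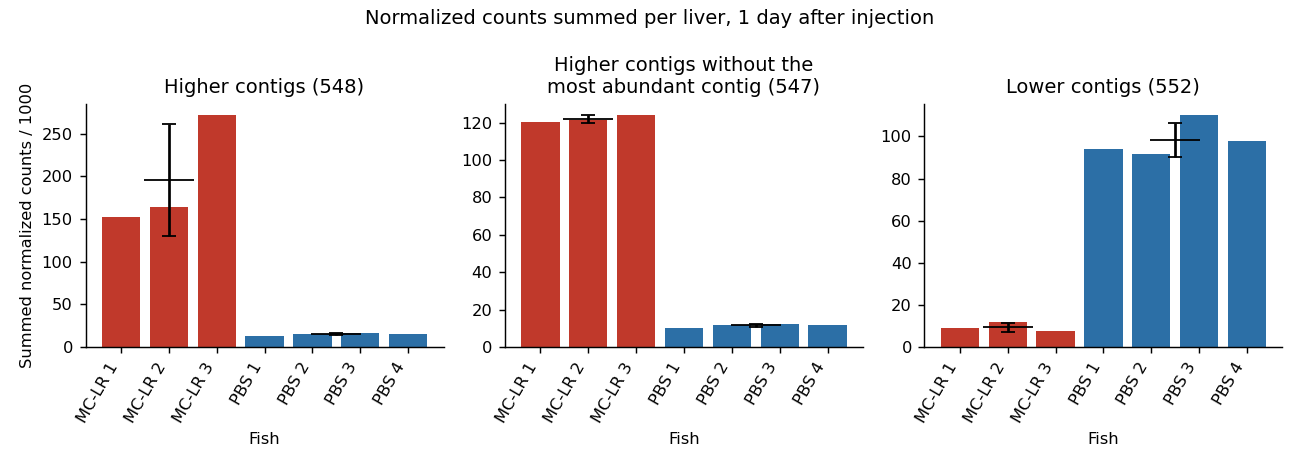
Normalized counts, divided by 1000, summed per fish over the 548 higher contigs, over the 547 that remain without the most abundant one, and over the 552 lower contigs, with MC-LR fish in red and PBS fish in blue. Black marks are group means with SD (n = 3 and n = 4). MC-LR fish 3 stands above the other exposed fish at 271661 in the first panel, and the exposed fish lie between 120077 and 123894 in the second.

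The next contigs by MC-LR level had MC-LR means at least 10 times smaller, and some were close to silent in PBS livers. The second had 10784, 6538 and 4472 normalized counts in MC-LR fish 1, 2 and 3, against 4.88, 1.79, 1.96 and 2.70 in PBS fish 1 to 4. The groups did not overlap, and the means of 7265 ± 3218 and 2.83 ± 1.42 differed 2565-fold (log2 fold change 11.27, SE 0.83). The adjusted p of 1.65e-07 from edgeR describes a contig already listed on these fish. The tenth was of the same kind, with 1956, 2594 and 1155 normalized counts in MC-LR fish against 0, 0, 0.98 and 3.6 in PBS fish. The third had 6398, 1476 and 1853 in MC-LR fish and 109, 46.5, 25.5 and 36.9 in PBS fish, highest in fish 1 of both groups, which share only a number. The sixth had 2235, 968 and 3669 in MC-LR fish against 18.6, 25, 20.6 and 212 in PBS fish, so that 1 PBS fish stood apart from the other controls.

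Other abundant higher contigs had ample reads in every control. The fourth had 1694, 3555 and 3468 normalized counts in MC-LR fish, against 71.3, 569, 697 and 348 in PBS fish, a ratio of means of 6.90 (log2 fold change 2.79, SE 0.66, adjusted p = 0.000814 from edgeR). The eighth rose more evenly, with 2615, 2163 and 1520 in MC-LR fish against 165, 106, 165 and 154 in PBS fish, a ratio of 14.2. The fifth, seventh and ninth were not called in edgeR, with ratios of means of 4.43, 3.72 and 3.38 and adjusted p of 0.00146, 0.00255 and 0.00277. None of these 3 had overlapping groups, and for the ninth the MC-LR fish lay at 1648, 1825 and 2295 normalized counts against 357, 522, 628 and 767 in PBS fish. The 10 most abundant higher contigs together took 41.7%, 39.3% and 64.1% of the sum in MC-LR fish 1, 2 and 3.

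**Figure D3:**
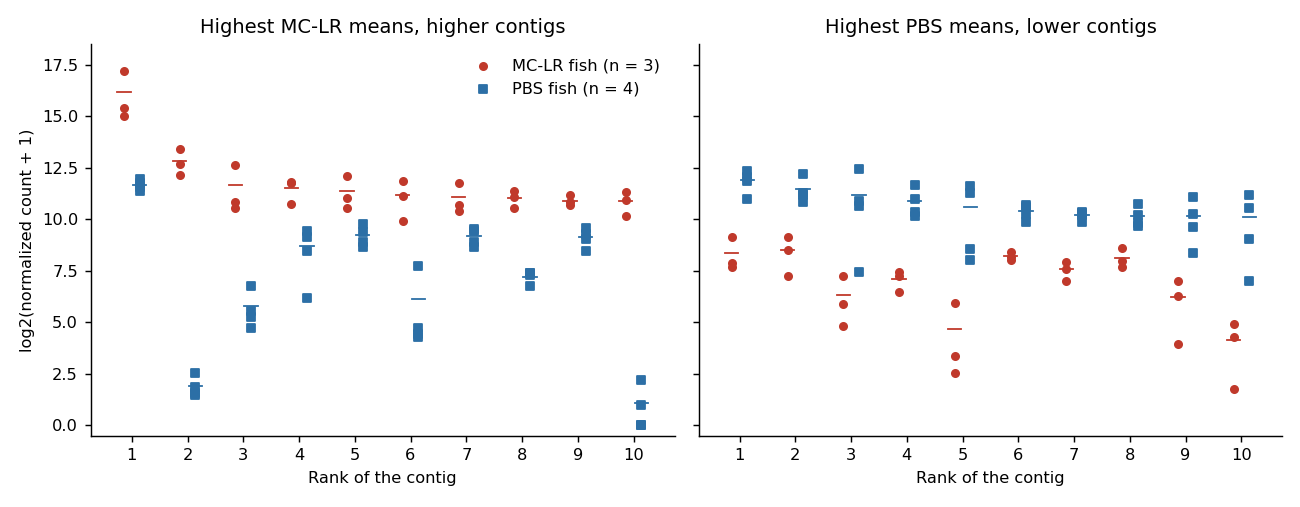
Levels per fish, as log2(normalized count + 1), of the 10 higher contigs with the highest MC-LR means (left) and the 10 lower contigs with the highest PBS means (right), in order of rank. Red circles are the 3 MC-LR fish and blue squares the 4 PBS fish, and lines mark log2(group mean + 1). The groups overlap in none of the 20, and the contigs at ranks 2 and 10 on the left lie near 0 in PBS fish.

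The higher contigs fell into 3 classes by their reads in controls. No PBS fish had a read on 149 of the 548, some but not all PBS fish had reads on 166, and all 4 had reads on 233. Every one of the 149 was read in all 3 MC-LR fish, so these contigs were detected in exposed livers alone among these 7 fish. Their MC-LR means ran from 14 to 840 normalized counts with a median of 26.1, and 17 of them exceeded 100. A floor of 3 counts over the 4 PBS fish stands for 0.702 normalized counts. Against it, the MC-LR means were at least 20.0-fold to at least 1197-fold higher than in PBS livers, with a median bound of 37.2. Spread between exposed fish is left out of these bounds. For 86 of the 149, each exposed fish had 10 or more reads. All 149 were called in edgeR, a description of the listing and no support for it.

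TRINITY_DN96413_c4_g3_i1 had the highest MC-LR level among the contigs without PBS reads. It held 1402, 901 and 218 normalized counts in MC-LR fish 1, 2 and 3, from 1351, 1074 and 181 reads, against 0 reads in each of the 4 PBS fish. It was thus detected in every exposed liver, most in fish 1 and least in fish 3. Its mean of 840 ± 594 (SD, n = 3) was at least 1197-fold higher than in PBS livers. As a description of a listed contig, the adjusted p from edgeR was 2.18e-06, and 0.00162 without MC-LR fish 1. A second contig of the same Trinity gene, a group of contigs that the assembler takes for isoforms, was also silent in PBS fish and had 339, 223 and 99.0 normalized counts in MC-LR fish, in the same order of fish. Reads of such contigs can be shared between them, so the pair does not count as separate transcripts.

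The other abundant contigs of this class did not follow 1 order of fish. The second had 376, 226 and 1215 normalized counts in MC-LR fish 1, 2 and 3, the third had 175, 367 and 152, and the fifth had 145, 13.4 and 383. Each had 0 reads in every PBS fish, and the highest exposed fish was fish 3, fish 2 and fish 3 in turn. Their MC-LR means were at least 863-fold, 330-fold and 257-fold higher than in PBS livers. These bounds hold for the means and not for each exposed fish. The fifth rested on few reads in MC-LR fish 2 and had the widest spread of the 5 relative to its mean, at 180 ± 187 (SD, n = 3).

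Contigs that controls also expressed reached higher levels after exposure but changed by a smaller factor. The median MC-LR mean was 26.1 normalized counts for the 149 silent in PBS, 60.8 for the 166 read in some PBS fish and 174 for the 233 read in all of them. Grouped by the PBS mean, the median ratio was 104 for 81 contigs above 0 and under 1 normalized count, 24.0 for 150 from 1 to under 10, and 7.25 for 143 from 10 to under 100. For the 25 with a PBS mean of 100 or more it was 4.63. The ratios and the PBS means share the same control values, and a low contig needed a large ratio to be listed, so this order is a description of the list.

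The 3 exposed fish did not stand in 1 order over the higher contigs. MC-LR fish 2 was the highest of the 3 in 240 contigs, fish 3 in 204 and fish 1 in 104, while fish 3 was also the lowest most often, in 235. Fish 1 was the lowest in 177 and fish 2 in 136, so fish 3 was at an end of the range more often than either. Any contig has 2 of the 3 fish at an end, so being at one is common for each fish. It was the highest in 21.5% of the contigs silent in PBS, in 41.6% of those read in some PBS fish and in 44.2% of those read in all. Fish 2 was the highest in 50.3%, 42.8% and 40.3% of these classes, and fish 1 in 28.2%, 15.7% and 15.5%. In 69 contigs fish 3 was over 2-fold above both other exposed fish, with medians of 52.9, 50.3 and 209 normalized counts in MC-LR fish 1, 2 and 3. Of these 69, 37 had reads in all PBS fish and 8 in none. In 105 contigs fish 3 was over 2-fold below both others, with medians of 67.4, 101 and 16.9, and of these 29 had reads in all PBS fish and 44 in none. These sets were formed on the values themselves, with 1 fish on each side, and carry no test.

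**Figure D4:**
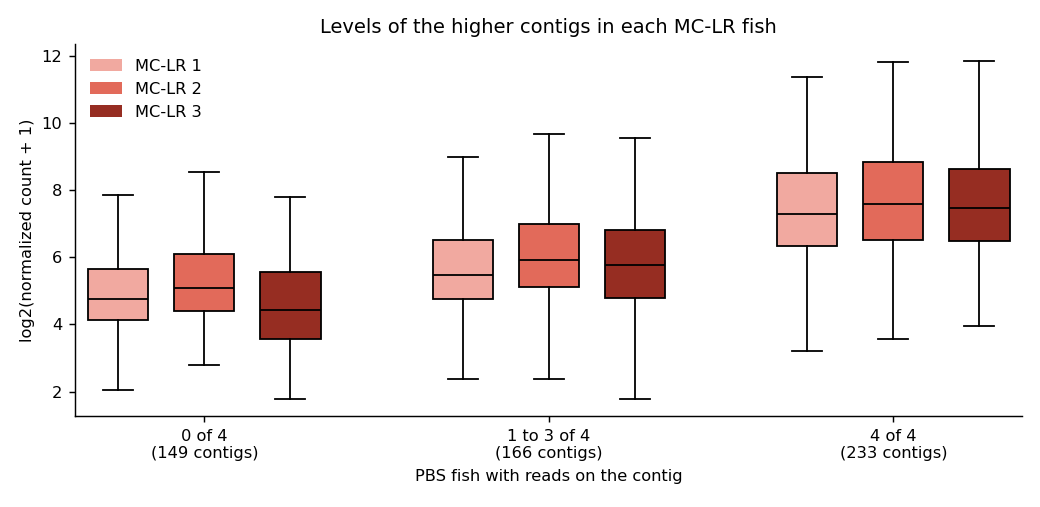
Levels, as log2(normalized count + 1), of the 548 higher contigs in each of the 3 MC-LR fish, grouped by how many of the 4 PBS fish had reads on the contig. Boxes show the median and quartiles over contigs, whiskers reach the farthest contig within 1.5 box lengths, and contigs beyond them are not drawn. Among the 149 contigs silent in PBS fish, the medians were 25.9, 32.7 and 20.5 normalized counts in MC-LR fish 1, 2 and 3. Among the 233 read in all PBS fish they were 157, 193 and 177.

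The levels of single contigs varied more between exposed fish than the sums show, which were near-equal on size factors without the most abundant contig. Over the 548 higher contigs, the median coefficient of variation between MC-LR fish was 0.520, where counting error alone would give a median of 0.110. Leaving out MC-LR fish 1, 2 or 3 gave 0.525, 0.474 and 0.347, each from 1 fish fewer. Among the 168 of them with a PBS mean of at least 10, the median coefficient between PBS fish was 0.398. That value covers fewer contigs and more fish than the 0.520 of MC-LR fish. All 3 exposed fish lay within 2-fold of each other in 132 of the 548, and 1 exposed fish was over 2-fold above both others in 176. Across the higher contigs, log2(normalized count + 1) had a Pearson's r of 0.81 between MC-LR fish 1 and 2, 0.75 between 1 and 3 and 0.67 between 2 and 3, against 0.88 to 0.92 between PBS fish. The 548 points of each pair share their libraries and are no replicates, and zeros in PBS fish enter their r. Across the 552 lower contigs r was 0.76 to 0.83 between MC-LR fish and 0.68 to 0.84 between PBS fish, so r was not higher between controls there. Zeros in MC-LR fish enter r in turn, as 74 of these contigs had no read in any MC-LR fish, so the 2 ranges are not on an equal footing.

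The lower contigs were spread over more transcripts, with none dominant. Their sums were 8783, 11780 and 7724 normalized counts in MC-LR fish 1, 2 and 3, against 94234, 91560, 110042 and 97829 in PBS fish 1 to 4. On the scale of the size factors, MC-LR fish 2 kept the most and fish 3 the least. Scaling by clean reads would bring fish 1 and 3 closer, as their size factors per clean read were 0.748 and 0.850. The means were 9429 ± 2104 (SD, n = 3) in MC-LR livers and 98416 ± 8165 (SD, n = 4) in PBS livers. The most abundant lower contig took 2.15% to 5.23% of the sum in PBS fish, and 46 to 66 contigs were needed to hold 50% of it.

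TRINITY_DN89811_c1_g1_i4 was the lower contig with the highest PBS level. It had 234, 563 and 204 normalized counts in MC-LR fish 1, 2 and 3, against 2022, 3665, 4274 and 5113 in PBS fish 1 to 4. It stayed readily detected in every exposed liver, and MC-LR fish 2 kept more than 2 times the level of either other exposed fish. The means were 334 ± 199 (SD, n = 3) in MC-LR livers and 3768 ± 1307 (SD, n = 4) in PBS livers, with a log2 fold change of -3.49 (SE 0.66, adjusted p = 0.00015 from edgeR). The log2 fold change was -4.10 without MC-LR fish 2. The adjusted p was 0.003 without MC-LR fish 1 and 0.00126 with TMM of the listed contigs, at log2 fold changes of -3.29 and -2.56.

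Abundant lower contigs differed in how alike the controls were. The seventh by PBS level had 245, 193 and 129 normalized counts in MC-LR fish against 1313, 1270, 1163 and 944 in PBS fish, a narrow range in both groups (log2 fold change -2.63, SE 0.53, adjusted p = 0.000244 from edgeR). The sixth had 292, 335 and 261 in MC-LR fish against 1662, 1202, 1524 and 932 in PBS fish. The fifth had 9.34, 60.4 and 4.83 in MC-LR fish against 3161, 256, 379 and 2483 in PBS fish, so that PBS fish 1 and 4 were far above PBS fish 2 and 3. In the third the PBS fish spanned a wider range still, at 1864, 175, 5494 and 1593, with 149, 58.7 and 27.8 in MC-LR fish. The tenth had 29.0, 18.4 and 2.41 in MC-LR fish against 527, 1474, 2347 and 129 in PBS fish. The order of the controls was thus not shared between these contigs, while MC-LR fish 3 was the lowest exposed fish in these 5. The eighth was instead lowest in MC-LR fish 2, with 384, 208 and 255 normalized counts in MC-LR fish 1, 2 and 3. With a ratio of PBS to MC-LR means of 4.05 and an adjusted p of 0.00177, it was not called in edgeR. Over the 552 lower contigs the median coefficient of variation between PBS fish was 0.415, where counting error alone would give 0.105, and the 4 PBS fish lay within 2-fold of each other in 168.

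Contigs without any read in the exposed group were fewer than those without any in controls. Of the 552 lower contigs, 74 had no read in any MC-LR fish, 237 had reads in some and 241 had reads in all 3, and 73 of the 74 were read in every PBS fish. The PBS means of the 74 ran from 13.4 to 108 normalized counts with a median of 22.1, against a median of 84.3 over all lower contigs. A floor of 3 counts over the 3 MC-LR fish stands for 1.01 normalized counts. Against it, the means were at least 13.4-fold to at least 108-fold lower in MC-LR livers, with a median bound of 22. Spread between PBS fish is left out of these bounds. This floor is higher than that of the PBS group, which has 1 more fish, so the 2 classes of silent contigs were not held to the same limit. The difference in number also depended on MC-LR fish 2. Without it, 132 contigs were off in MC-LR and on in every PBS fish, against 149 off in PBS.

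TRINITY_DN87718_c1_g3_i2 was the most abundant contig lost in all exposed fish. It had 0 reads in MC-LR fish 1, 2 and 3, against 119, 92.1, 129 and 92.6 normalized counts in PBS fish 1 to 4. The controls were close to each other, and their mean of 108 ± 18.9 (SD, n = 4) was about 108 times the floor of the exposed group. As a description of a listed contig, the adjusted p from edgeR was 2.19e-05, and 0.00162 without MC-LR fish 1. The next had 0 reads in MC-LR fish against 55.7, 86.8, 48.0 and 164 normalized counts in PBS fish. The fifth, also at 0 in MC-LR fish, had 15.6, 17.9, 59.8 and 189 in PBS fish, most of its mean coming from 1 control.

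Exposed fish differed in how many of the lower contigs were lost. MC-LR fish 1, 2 and 3 had 0 reads on 156, 104 and 284 of the 552, while no PBS fish had 0 reads on more than 1 of them. MC-LR fish 3 thus lacked reads on 51.4% of the lower contigs, MC-LR fish 1 on 28.3% and MC-LR fish 2 on 18.8%. Fish 3 also had the smallest size factor. If the reads of each fish were thinned to that size factor, a comparison added after seeing the data, 162, 118 and 284 contigs would be expected without reads in MC-LR fish 1, 2 and 3. The gap of fish 3 to the other exposed fish was thus somewhat smaller at matched size factors. A size factor is not the depth of a library, so matching it does not match the clean reads. The part of total library depth, RNA quality and the extent of injury in each fish was not tested.

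The contigs lost in fish 3 alone were at low levels in the other exposed fish. In 131 lower contigs only fish 3 of the exposed fish had no reads, against 17 for fish 1 alone. Their medians were 3.11 and 4.19 normalized counts in MC-LR fish 1 and 2, and 57.5 to 66.4 in the 4 PBS fish. Another 59 lower contigs were read in fish 2 alone of the exposed fish, 20 in fish 1 alone and 6 in fish 3 alone. Without MC-LR fish 2, the contigs with no read in the exposed group and reads in every PBS fish numbered 132 in place of 73. Where all 3 exposed fish had reads, fish 2 was the highest of them in 119 of 241 contigs and fish 3 the lowest in 113, with medians of 13.5, 21.8 and 14.5 normalized counts in MC-LR fish 1, 2 and 3.

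**Figure D5:**
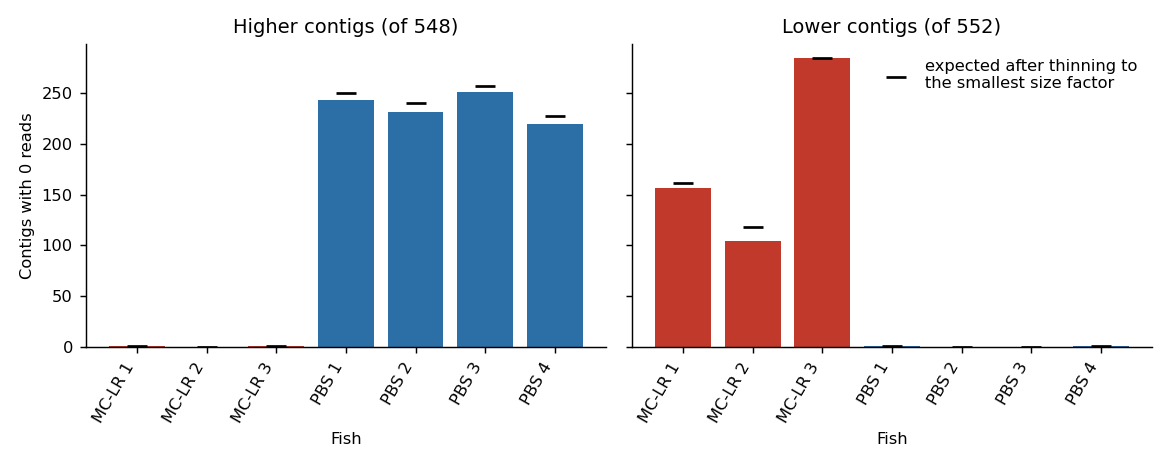
Number of contigs with 0 reads in each fish among the 548 higher contigs (left) and the 552 lower contigs (right), with MC-LR fish in red and PBS fish in blue. Black dashes give the number expected after thinning the reads of every fish to the smallest size factor, that of MC-LR fish 3. On the right MC-LR fish 3 stands at 284, against 156 and 104 in MC-LR fish 1 and 2. On the left the 4 PBS fish lie between 219 and 251.

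Among the higher contigs the controls lacked similar numbers. PBS fish 1 to 4 had 0 reads on 243, 231, 251 and 219 of the 548 higher contigs, while no MC-LR fish had 0 reads on more than 1 of these. Measured on the log2(normalized count + 1) scale against the mean of the PBS fish, the median higher contig stood 4.07, 4.38 and 3.95 higher in MC-LR fish 1, 2 and 3. The median lower contig differed by -3.94, -3.47 and -4.55 in the same fish. Fish 2 thus had the largest median difference among the higher contigs and the smallest among the lower ones, and fish 3 the reverse. By these medians fish 2 was the highest exposed fish in both sets, while fish 3 had the largest sum over the higher contigs. The order by medians is on the scale of the size factors, which per clean read were 0.748, 1.01 and 0.850 in MC-LR fish 1, 2 and 3. It can depend on that scaling.

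Contigs of 1 Trinity gene were listed in the same direction. The 1100 contigs came from 1043 Trinity genes, of which 53 had several listed contigs, 110 in all. In 22 of these genes all listed contigs were higher and in 31 all were lower, and 0 had both directions. Of the 22, 18 had the same highest MC-LR fish in all their listed contigs, and in 6 every listed contig was silent in PBS fish. Shared reads between similar contigs can make such members alike.

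The named contigs were also looked up in the tables of days 6 and 9, which compare other MC-LR fish with the same 4 PBS fish of day 1 and were normalized separately. Per the paper, the MC-LR injection was repeated between days 6 and 9. The fish of day 9 had thus received a second dose, and those of days 1 and 6 a single dose. TRINITY_DN78778_c0_g1_i16 stood at 22.6, 39.5 and 27.1 times the PBS mean in the MC-LR livers of days 1, 6 and 9. Its levels there were 74342 ± 63783, 143363 ± 132315 and 110115 ± 93915 (SD, n = 3 each), a wide spread between fish on each day. TRINITY_DN96413_c4_g3_i1 had 840 ± 594 on day 1 and 349 ± 197 on day 6 (SD, n = 3 each), in normalized counts of MC-LR livers, and it was not listed on day 9. TRINITY_DN89811_c1_g1_i4 had 334 ± 199, 34.3 ± 16 and 91.8 ± 68.2 (SD, n = 3 each) in MC-LR livers on days 1, 6 and 9. TRINITY_DN87718_c1_g3_i2 had 0 reads in all MC-LR fish of day 1 and means of 1.82 ± 3.15 and 7 ± 6.77 (SD, n = 3 each) on days 6 and 9. The 4 contigs were chosen on day 1, and no difference between days was tested.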

How the data were processed

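Liver RNA-Seq of 3 MC-LR fish and 4 PBS fish of day 1 was used, grouped by their labels. Per the labels the authors trimmed reads with Trimmomatic 0.36. Contigs were assembled with Trinity, filtered for coding potential and low abundance, and raw counts per contig were taken with samtools idxstats and deposited unnormalized. The deposited base mean, a signal averaged over the 7 fish after division by DESeq2's size factors, was solved for these factors. Columns of fold changes, standard errors, test statistics and p-values hold the authors' DESeq2 comparison and were not used, except to check that all listed adjusted p are under 0.001.

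Counts of all 1100 listed contigs were fitted without a filter in edgeR 4.0.16 (R 4.3.3) by the quasi-likelihood test, scaled by these factors, with Benjamini-Hochberg adjustment over the listed contigs. The SE is the log2 fold change over the root of the F statistic. Clean reads from the study's sample table gave an alternative scaling. Other alternatives were DESeq2 1.42.0, TMM, filterByExpr, a replicate block, other thresholds and leaving out each fish. The edgeR and DESeq2 fits were checked on simulated counts with known changes. Rules on naming took at most 4 contigs: the called contig with the highest MC-LR mean among higher ones, that with the highest PBS mean among lower ones, and the same within contigs silent in PBS or in MC-LR. Others were described by rank. Members, lists and thresholds were chosen with earlier results of these data known. Fish are separate animals. Bounds cover counting error only.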

Additional observations from a re-analysis of the deposited data

Results flagged for a closer look

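Among the abundant contigs, 1 PBS value stood apart by Dixon's test for a group of 4 fish. The sixth higher contig by MC-LR level had 2235, 968 and 3669 normalized counts in MC-LR fish 1, 2 and 3, against 18.6, 25, 20.6 and 212 in PBS fish 1 to 4, and the gap of the fourth control to the nearest other control was 0.966 of the range of the PBS group. It was 1 of 29 PBS groups looked at, and chance flags about 1 in 20 groups whose values vary. A group without a read in any PBS fish cannot be flagged, and some of the 29 were such groups, so fewer than 29 were open to a flag.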

How the results depend on the processing

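All 548 higher and 552 lower contigs kept their direction in every fit that tested them. Kept directions largely follow from the listing on these same fish and are no support for it. The counts of calls stayed within 1.5 times except as follows. Calls down numbered 177 with TMM of the listed contigs. Leaving out 1 fish gave 10 to 438 calls up and 1 to 393 down, the lowest without MC-LR fish 1, and the cause was not tested. DESeq2 called 532 up and 532 down, clean reads as scaling gave 407 and 459, and filterByExpr, which tested 1015 contigs, gave 398 and 415. The replicate numbers did not pair the fish, which were separate animals, and deviations of same-numbered fish from their group means correlated at 0.08, -0.05 and -0.02. A replicate block gave 394 up and 354 down. The sum of higher contigs was 328455 in MC-LR fish and 11838 in PBS fish with TMM, 16440 in PBS fish with clean reads, and 121858 and 11494 without the most abundant contig. The sum of lower contigs was 15295 in MC-LR fish and 78646 in PBS fish with TMM, and 109467 in PBS fish with clean reads. TMM takes most contigs as unchanged, which a list of changed contigs is not. Contigs off in MC-LR and on in PBS numbered 73 to 132 when 1 fish was left out, the highest without MC-LR fish 2. The median coefficient of variation of higher contigs between MC-LR fish was 0.347 to 0.525 without 1 of these fish, and 0.559 with clean reads as scaling. The difference in size factor per clean read was -0.300 to -0.171 without 1 fish, where 6 fish cannot give an exact p under 0.0667, and -0.0738 (permutation p = 0.543) for the size factor alone. A group mean below 1 normalized count comes from at most a few reads.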
